A study of Mus musculus with 12 samples.

Results

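Ribosomal protein genes were followed in MEC cells, a line of mouse intraembryonic endothelium, treated with BMP6 and measured on 12 Agilent oligonucleotide arrays. Every named gene with a cytosolic ribosomal protein symbol (Rpl or Rps and a number, Rplp0 to Rplp2 and Rpsa, without the S6 kinases) was taken. This gave 47 genes on 53 probes, out of 8267 named genes. They were 26 proteins of the large subunit, 15 of the small subunit, the stalk proteins Rplp1 and Rplp2, and 4 relatives, namely the paralogs Rps27l, Rpl39l and Rpl7l1 and the transcribed pseudogene Rps4l. The large subunit was covered by Rpl4, Rpl5, Rpl6, Rpl7, Rpl7a, Rpl8, Rpl9, Rpl10, Rpl13, Rpl13a, Rpl15, Rpl17, Rpl19, Rpl23, Rpl23a, Rpl24, Rpl27a, Rpl28, Rpl34, Rpl35, Rpl35a, Rpl36, Rpl36a, Rpl37a, Rpl38 and Rpl39. The small subunit was covered by Rps3a1, Rps4x, Rps6, Rps9, Rps12, Rps13, Rps19, Rps20, Rps21, Rps23, Rps24, Rps25, Rps26, Rps28 and Rps29. The design text gives 3 times of BMP6 treatment, 4, 12 and 24 h, and a mock-treated control with no stated time, with 3 biological replicates in each group. BMP6 is a bone morphogenetic protein, a secreted ligand of the TGF-beta superfamily, and its dose is not in the labels. On every array the cell RNA was labelled with Cy5 and set against universal mouse reference RNA in Cy3. The sample titles number the arrays 1 to 3 in each group, and these are called title numbers here.

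A ribosome holds close to a single copy of each of its proteins, so cells make them in balanced amounts, and their genes form one of the most tightly co-expressed gene groups known. Their mRNAs are abundant and share a short pyrimidine-rich stretch that begins at the transcription start, the terminal oligopyrimidine (TOP) tract, through which the kinase mTORC1 and its target Larp1 adjust translation. Ribosome production is a large cost for a growing cell and follows growth signals, among them the transcription factor Myc.

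Start sites of 38 of the 47 genes were matched in RefSeq (GRCm38.p6), in windows of 250 bases before to 50 bases after each start. The 10 windows below show a pyrimidine run at the start, which only some of the genes carry, and 2 windows without one there. Each has 10 bases before the start and 20 from it on, on the transcribed strand, 5′ to 3′, and the capitals mark the longest run of C and T. They were chosen after the windows were seen. Rpl35a has 3 listed starts, and the start whose printed window has the longest run is shown.
Rpl35, chr2:39005112-39005141, minus strand: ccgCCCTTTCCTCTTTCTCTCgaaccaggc
Rpl15, chr14:18270967-18270996, minus strand: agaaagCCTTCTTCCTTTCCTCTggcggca
Rpl7a, chr2:26910797-26910826, plus strand: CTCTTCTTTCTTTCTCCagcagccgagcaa
Rpl35a, chr16:33056472-33056501, plus strand: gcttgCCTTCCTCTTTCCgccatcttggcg
Rpl28, chr7:4792955-4792984, plus strand: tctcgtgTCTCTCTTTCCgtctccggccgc
Rpl38, chr11:114668570-114668599, plus strand: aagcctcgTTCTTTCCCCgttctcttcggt
Rplp2, chr7:141447641-141447670, plus strand: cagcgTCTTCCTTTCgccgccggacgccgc
Rps6, chr4:86857348-86857377, minus strand: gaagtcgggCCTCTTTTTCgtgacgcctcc
Rps13, chr7:116334171-116334200, minus strand: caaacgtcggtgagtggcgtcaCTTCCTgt
Rpl36a, chrX:134585644-134585673, plus strand: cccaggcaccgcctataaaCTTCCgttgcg
The first 8 carry a run of 10 to 18 pyrimidines that spans the start, counted within the printed window. The run of Rpl7a begins at the first printed base, so its length there is a minimum. In Rps13 and Rpl36a the longest run has 6 and 5 bases and lies inside the printed transcript. In the counts below a gene with several listed starts counts if any of its windows matches. A run of 8 or more C or T bases, overlapping or not with other motifs, lay within 25 bases of the start in 23 of 38 genes (60.5%), against 22.0% of 17453 other genes. The letters CTCTTTC, searched on the transcribed strand within 50 bases of the start, were found in 9 of 38 genes (23.7%), against 1.48% of the others. On either strand of the whole window, CCGGAAG, the core letters of an ETS factor motif, was in 16 genes (42.1%, against 12.9%), and CCATNTT, core letters of the YY1 motif, was in 13 (34.2%, against 17.3%). GGGCGG was in 22 (57.9%, against 49.2%) and TATAAA in 3 (7.89%, against 14.8%). These are letter matches and not measured binding sites.

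Values are log ratios, read as log2 of cells over reference from the dyes, since neither base nor sign is given in the sources used here. With the opposite sign every direction below would turn. Every gene name depends on how value rows were matched to probes. Rows were matched in a grid order inferred from these values, in which the first 2 probes of a gene correlate at r = 0.471 across 1831 genes, which are not independent replicates, against 0.021 in the order as deposited. The order was chosen on that agreement, with the data in view, and genes of the ribosome with more than 1 probe were among those compared. Array medians lay between -0.04 and 0.002, with SDs from 0.607 to 0.688. No spot intensities were used, so nothing is said on detection, and precision is set by 3 arrays a group. Of 19 endothelial markers 8 were measured, and only Sox18 lay above the reference RNA on average, while the median of the 8 ran from -0.907 to -0.615 over the arrays. Fibroblast and mesenchymal markers had array medians from -0.318 to 0.246 over 8 measured genes, epithelial markers from -1.199 to -0.692 over 8, and blood cell markers from -1.12 to -0.585 over 5. Changes were tested with limma over all 8267 genes, without and with the title number as a replicate block, at a Benjamini-Hochberg adjusted p under 0.05. The BMP targets Id1, Id2, Id3 and Snai1 were the 4 of 11 measured targets that rose with the block at 4 h, beside 6.02% of all genes called. Id1 was higher by 0.98 at 4 h, 0.97 at 12 h and 1.07 at 24 h (adjusted p 0.00058, 0.00205 and 0.00168 with the block, and 0.20, 0.533 and 1 without it).

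BMP6 left no ribosomal protein gene past the threshold at any time. At 4 h, 0 of 47 members passed in either fit, beside 0.169% of all genes without the block and 6.02% with it. At 12 h the count was again 0 of 47 in both fits, beside 0% and 1.89% of all genes. At 24 h it was 0 of 47 in both, beside 0% and 0.169%. The F test over the 3 times also called 0 members, beside 0.0484% and 4.98% of all genes. At an unadjusted p under 0.05, limma without the block listed 1 member at 4 h (Rps19, lower, beside 4.52% of all genes lower), 0 at 12 h (4.75%) and 0 at 24 h (2.01%). With the block it listed 8 at 4 h, all lower (13.2% of all genes lower), 0 at 12 h (15.4% of all genes), and 3 at 24 h, all lower (4.81% lower). The 8 at 4 h were Rpl4, Rpl7a, Rpl10, Rpl13, Rpl13a, Rpl19, Rps4x and Rps19, and Rpl10, Rps4x and Rps19 were the 3 at 24 h. The methods' t-test (2-tailed, equal variance) at an unadjusted p under 0.05 listed 0 members at each time against control. For this test no share over all genes is given, so its counts cannot be placed against the other genes.

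The sizes were small. The median log2 change of the members was -0.14 at 4 h, 0.013 at 12 h and -0.11 at 24 h, beside -0.006, -0.002 and -0.005 over all genes. No member changed by more than 0.5 at any time, and the changes ran from -0.35 (Rps19) to 0.095 (Rpl36a) at 4 h, from -0.42 (Rps27l) to 0.29 (Rpl35) at 12 h, and from -0.28 (Rps19) to 0.068 (Rpl38) at 24 h. At 4 h 39 of 47 members lay below control (83.0%, against 52.4% of all genes), at 12 h 23 of 47 (48.9%, against 50.7%), and at 24 h 36 of 47 (76.6%, against 52.6%). Large and small subunit proteins had near-equal medians at 4 h, -0.15 over 26 genes and -0.15 over 15. The 3 comparisons share the control arrays. In the pairs numbered 1 and 2 the median member stood at 0.025 and 0.060 at 4 h, and in pair 3 at -0.55. In pair 3, 43 of 47 members were lower (91.5%, against 55.4% of all genes). Without control array 3 and without the block, the median was 0.060 at 4 h, 0.21 at 12 h and 0.10 at 24 h, and without control array 2 it was -0.364, -0.208 and -0.315. These fits keep the other arrays of the number left out. With all 4 arrays numbered 3 left out, it was 0.043, 0.14 and -0.033. A p above the threshold does not show that the levels were equal. The median standard error of a member was 0.24 without the block and 0.107 with it, against 0.0989 and 0.0621 for all genes.

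**Figure D1:**
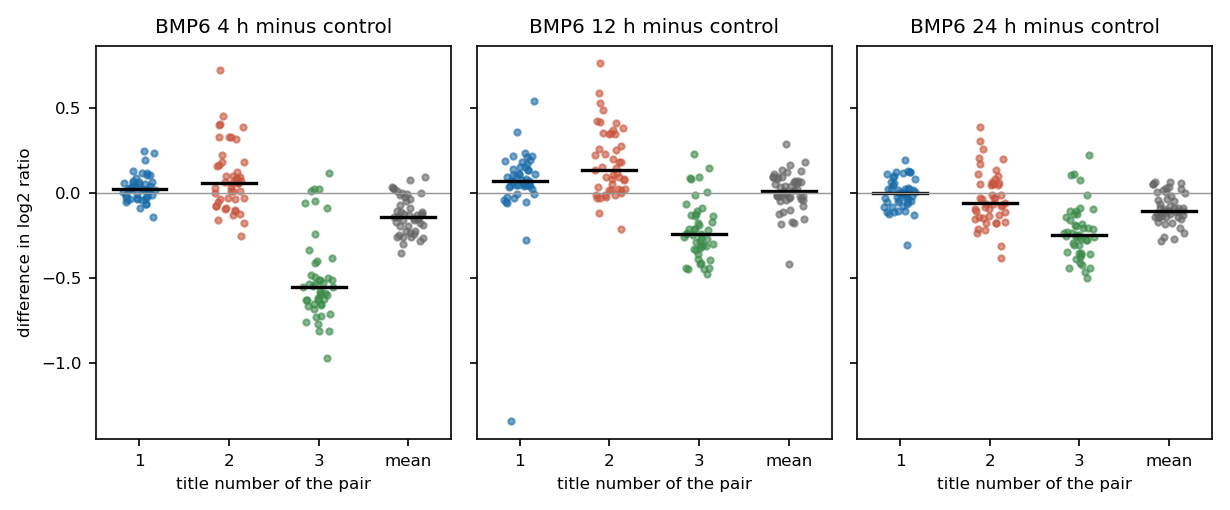
Difference in log2 ratio between BMP6 and control arrays of the same title number, one point per ribosomal protein gene, with the mean of the 3 pairs in grey and black bars at the medians. Pairs 1 and 2 centre near 0 at 4 h (0.025 and 0.060), and pair 3 centres at -0.55.

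Among large subunit proteins, Rpl10, which is among the last proteins to join the subunit and stands near its catalytic centre, had log2 ratios of 0.70, 0.60 and 1.34 in control cells, 0.68, 0.52 and 0.72 after 4 h, 0.65, 0.57 and 0.89 after 12 h and 0.59, 0.36 and 0.87 after 24 h of BMP6. Control array 3 was the highest of the 12 and the groups overlapped. Intervals of single genes are from limma without the block unless stated. The change was -0.24 at 4 h (95% interval -0.64 to 0.16) and -0.27 at 24 h (-0.67 to 0.13). With the block these intervals were -0.455 to -0.022 and -0.486 to -0.053 (adjusted p 0.187 and 0.518). The value was lower in all 3 pairs at each of the 3 times. Rpl13 gave 0.70, 0.43 and 1.44 in control cells, 0.73, 0.30 and 0.62 after 4 h, 0.77, 0.45 and 1.02 after 12 h and 0.62, 0.12 and 1.06 after 24 h of BMP6, again highest on control array 3 and lowest on array 2 of 24 h. Its change was -0.30 at 4 h (-0.91 to 0.31, and with the block -0.593 to -0.009, adjusted p = 0.22). Rpl19 had 1.04, 0.89 and 1.43 in control cells, 0.999, 0.79 and 0.80 after 4 h, 1.09, 1.04 and 1.19 after 12 h and 0.93, 0.71 and 1.197 after 24 h of BMP6. Its 4 h values 2 and 3 lay below every control value, while the first 4 h value did not, and the change was -0.26 (-0.58 to 0.06). With the block the interval was -0.485 to -0.031 (adjusted p = 0.178). At 12 h the change of Rpl19 was -0.014 (-0.33 to 0.30).

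Rpl35 and Rpl38 were at the upper end. Rpl35, which lies by the exit of the tunnel through which the new chain leaves the ribosome, had 1.12, 0.56 and 1.75 in control cells, 1.11, 0.95 and 1.21 after 4 h, 1.48, 0.97 and 1.84 after 12 h and 1.14, 0.73 and 1.65 after 24 h of BMP6. Array 3 of 12 h was the highest, and all 3 pairs at 12 h were higher than control, by 0.36, 0.42 and 0.092. The change of 0.29 (-0.39 to 0.96) was within the spread, with adjusted p = 1 without the block and 0.325 with it. With the block the interval was -0.002 to 0.581. Rpl38, whose loss in the mouse mutant Tail short alters axial skeleton patterning, gave 0.96, 0.43 and 1.69 in control cells, 1.21, 0.82 and 1.28 after 4 h, 1.19, 0.81 and 1.56 after 12 h and 1.16, 0.63 and 1.49 after 24 h of BMP6. The groups overlapped completely, since control held both the lowest and the highest of the 12 values. Its change was 0.075 at 4 h, 0.16 at 12 h and 0.068 at 24 h.

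Rpl39, a very small protein in the wall of the exit tunnel, had the widest spread of all members. Its log2 ratios were 1.21, -0.51 and 1.499 in control cells, 1.15, 0.22 and 0.85 after 4 h, 1.16, 0.26 and 1.17 after 12 h and 1.202, -0.20 and 1.38 after 24 h of BMP6. All 4 arrays numbered 2 lay below the other 8, and control array 2 was the lowest. The SD over the 12 arrays was 0.665, the change at 4 h was 0.002, and the interval of -1.18 to 1.18 was the widest among the members named at that time. With the block the interval narrowed to -0.45 to 0.45. Rpl36a, a large subunit protein with a near-identical relative in Rpl36al, gave -0.55, -0.41 and -0.41 in control cells, -0.31, -0.32 and -0.45 after 4 h, -0.004, -0.39 and -0.42 after 12 h and -0.46, -0.31 and -0.59 after 24 h of BMP6. Array 1 of 12 h stood out at -0.004 and the other 11 lay between -0.594 and -0.305. Its change was 0.095 at 4 h (-0.15 to 0.34) and 0.18 at 12 h (-0.06 to 0.43).

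Rpl15 and Rpl6 each had a pair of probes whose changes differed in sign. Rpl15, needed for processing of large subunit rRNA in human cells, averaged 0.23, 0.06 and 0.55 in control cells, 0.26, 0.03 and 0.21 after 4 h, 0.31, 0.08 and 0.34 after 12 h and 0.23, -0.03 and 0.39 after 24 h of BMP6. One probe lay 0.18 below control at 24 h and the other 0.007 above it. Rpl6, another large subunit protein, averaged 1.04, 0.71 and 1.47 in control cells, 1.17, 0.72 and 0.87 after 4 h, 1.26, 0.91 and 1.23 after 12 h and 1.10, 0.68 and 1.12 after 24 h of BMP6. One of its probes was 0.19 above control at 12 h and the other 0.063 below. The gap was larger at 24 h, where the same probes stood at 0.045 and -0.258. At 4 h the 2 probes of Rpl6 stood at -0.012 and -0.29. In both genes the average was highest on control array 3.

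Rplp1 belongs to the stalk that recruits elongation factors to the ribosome. It had 1.42, 0.96 and 2.28 in control cells, 1.47, 1.03 and 1.31 after 4 h, 1.61, 1.19 and 1.80 after 12 h and 1.39, 0.88 and 1.78 after 24 h of BMP6. Control array 3 exceeded the next highest array by a wide margin, and the change at 4 h was -0.28 (-0.96 to 0.40, and with the block -0.642 to 0.078). Its partner Rplp2 had -0.88, -1.13 and -1.16 in control cells, -0.95, -1.20 and -1.04 after 4 h, -1.16, -1.14 and -1.02 after 12 h and -1.19, -1.23 and -0.94 after 24 h of BMP6, with all 12 values below 0 and no change beyond -0.062. The probes of the 2 stalk genes, 1 for each gene, thus gave different patterns over the same arrays. Whether the difference lies in the genes or in the probes was not tested.

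Rps19, a protein of the small subunit head whose human gene is mutated in Diamond-Blackfan anaemia, came closest to the threshold. It had 0.79, 0.999 and 1.43 in control cells, 0.76, 0.75 and 0.66 after 4 h, 0.84, 0.79 and 1.04 after 12 h and 0.69, 0.62 and 1.08 after 24 h of BMP6. The 4 h values lay below all control values, and Rps19 was the 1 member whose groups did not overlap in that direction at 4 h, beside 6.33% of all genes. All 3 pairs were lower at 4 h and at 24 h. The change was -0.35 at 4 h (SE 0.157, interval -0.70 to -0.007, adjusted p = 0.649), -0.18 at 12 h and -0.28 at 24 h. With the block the adjusted p at 4 h was 0.104. Without control array 1 and with the block it was 0.0376, at a change of -0.47. For that fit no share over all genes is given.

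Rps6, the small subunit protein that S6 kinases phosphorylate downstream of mTORC1, was among the steadiest members. Its 2 probes averaged 0.25, 0.40 and 0.39 in control cells, 0.28, 0.46 and 0.41 after 4 h, 0.39, 0.46 and 0.49 after 12 h and 0.28, 0.46 and 0.47 after 24 h of BMP6. The average was slightly higher than control in all 3 pairs at each time, with changes of 0.036, 0.095 and 0.055, and an interval of -0.13 to 0.21 at 4 h. The SD of the average over 12 arrays was 0.0818. The probes lay on opposite sides of the reference RNA. In control cells the first stood at 0.964, 1.08 and 1.109 and the second at -0.457, -0.274 and -0.329. Their r with the member median was 0.296 and -0.322.

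The relatives Rpl39l, Rpl7l1 and Rps4l varied little over the arrays, and Rps27l varied widely. Rps27l, a relative of Rps27 that p53 induces in human cells, had 1.73, 0.45 and 1.98 in control cells, 1.69, 0.86 and 1.22 after 4 h, 0.39, 0.98 and 1.54 after 12 h and 1.79, 0.84 and 1.64 after 24 h of BMP6. Array 1 of 12 h, at 0.39, was far below the other arrays numbered 1, which lay between 1.69 and 1.79, and the change of -0.42 at 12 h (-1.33 to 0.49) became -0.13 without it. Pairs 1, 2 and 3 differed by -1.34, 0.53 and -0.44. Rpl39l, a relative of Rpl39 known for its high level in testis, gave -0.45, -0.42 and -0.47 in control cells, -0.41, -0.40 and -0.45 after 4 h, -0.34, -0.42 and -0.24 after 12 h and -0.35, -0.43 and -0.36 after 24 h of BMP6. All values lay below 0, the 12 h value numbered 3 was the highest, and the change at 12 h was 0.11 (-0.02 to 0.25).

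**Figure D2:**
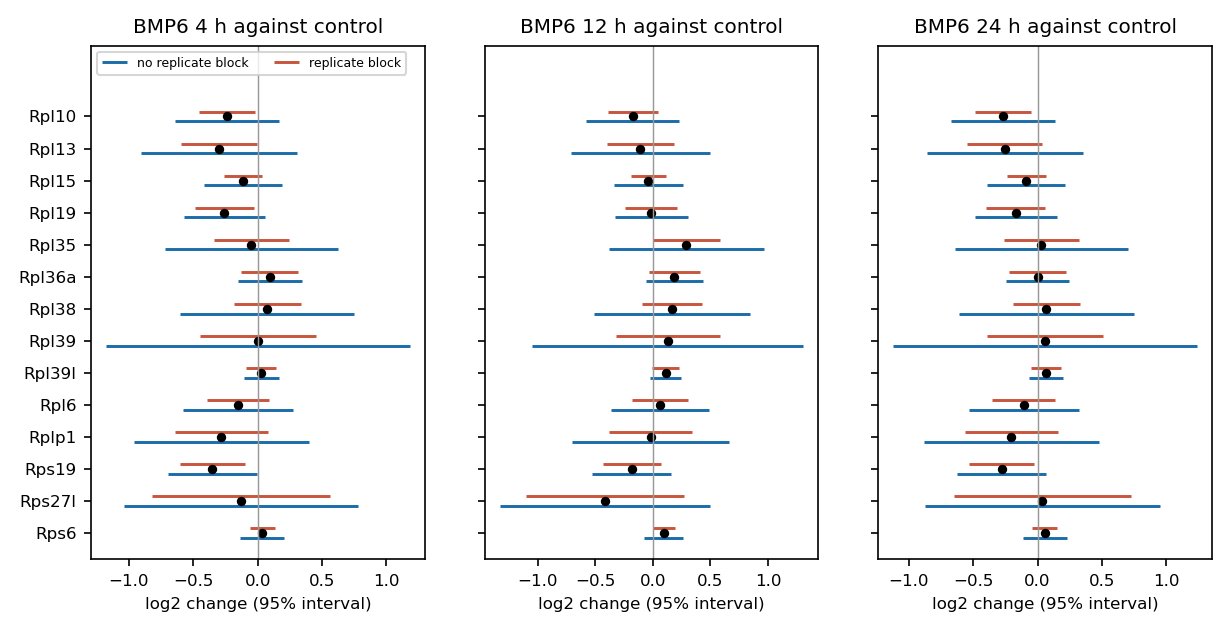
Log2 change of 14 named ribosomal protein genes after 4, 12 and 24 h of BMP6 relative to control (points), with the 95% interval from limma without the replicate block (lower line) and with it (upper line). The Rps19 change at 4 h is -0.35, and the interval of Rpl39 at 4 h runs from -1.18 to 1.18 without the block.

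Between BMP6 times no member passed the threshold either. At 12 h against 4 h the median change was 0.13 (0.007 over all genes), 44 of 47 members were higher (4352 of all 8267 genes), and 28 were higher in all 3 pairs, beside 24.9% of all genes. Limma called 0 of 47 in both fits, beside 0% and 1.29% of all genes. At an unadjusted p under 0.05 it listed 0 without the block, beside 4.45% of all genes, and 4 higher with it (Rpl19, Rpl34, Rpl35 and Rps20), beside 8.26% of all genes higher. The methods' t-test (2-tailed, equal variance) at an unadjusted p under 0.05 listed Rpl19 alone, again with no share over all genes given. At 24 h against 12 h the median was -0.099, 43 of 47 were lower (91.5%, against 50.1% of all genes), and 21 were lower in all 3 pairs, beside 19.2% of all genes. Again 0 of 47 passed in either fit, beside 0% and 0.109%, and 0 had an unadjusted p under 0.05, beside 1.84% and 8.55%. Both comparisons use the 12 h arrays. At 24 h against 4 h the median was 0.043 (0.009 over all genes) and ran from -0.106 without array 3 of 24 h to 0.223 without array 2 of 24 h, with 0 of 47 called in either fit, beside 0.0726% and 4.05%, and 0 at an unadjusted p under 0.05, beside 6.98% and 19.1%.

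Most of the spread of the members lay between title numbers. The median ratio of the 47 genes on arrays 1, 2 and 3 was 0.748, 0.393 and 1.389 in control cells, 0.755, 0.481 and 0.786 at 4 h, 0.837, 0.565 and 1.037 at 12 h, and 0.730, 0.354 and 1.075 at 24 h. Number 2 was lowest and number 3 highest in every group, and control array 3 was the highest of all. The median of all genes stayed between 0.007 and 0.033 on these arrays. Of the sum of squares of the members 74.8% lay between title numbers, 7.43% between treatment groups and 17.8% in the rest. For all genes the shares were 55.0%, 23.4% and 21.6%. The median SD over 12 arrays was 0.299 for the members and 0.124 for all genes. No label says what arrays of one number share, and what sets these levels was not tested.

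**Figure D3:**
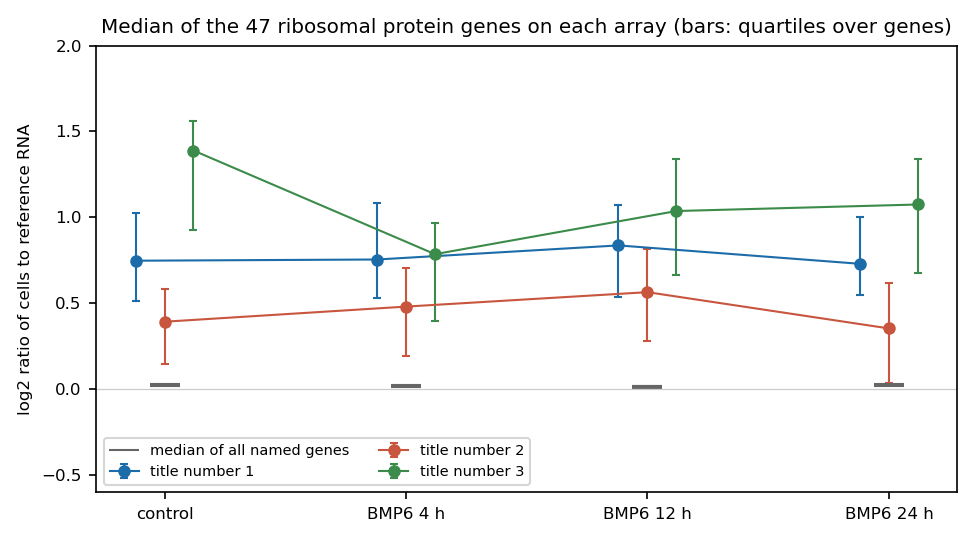
Median log2 ratio of the 47 ribosomal protein genes on each of the 12 arrays, with quartiles over genes as bars, lines joining arrays of one title number, and grey dashes for the median of all 8267 genes. Number 2 lies lowest in every group, and control array 3 stands at 1.389.

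The comparison of title numbers was added after these levels were seen, in the fit with group and number. In its F test 40 of 47 members passed, beside 55.9% of all genes. For number 3 against 2, 39 members were higher and 0 lower, beside 21.4% of genes higher and 13% lower. For number 2 against 1, 30 were lower and 2 higher (Rps13 and Rps6), beside 23% lower and 17% higher. For number 3 against 1, 15 were higher, beside 14.9% of all genes. Rpl39 averaged 1.18 ± 0.03 on number 1, -0.056 ± 0.36 on number 2 and 1.22 ± 0.29 on number 3 (SD, n = 4). Rps29, of the small subunit, averaged 0.956 ± 0.10, 0.294 ± 0.19 and 1.24 ± 0.22. Rpl36 averaged 0.681 ± 0.11, -0.019 ± 0.06 and 0.67 ± 0.22, and no difference was called between its numbers 1 and 3 (adjusted p = 0.933). Array by array, number 2 was the lowest of its group in all 4 groups for 36 of 47 members, beside 18.2% of all genes. Control array 3 was the highest of the 12 for 39 members, beside 22.1%.

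**Figure D4:**
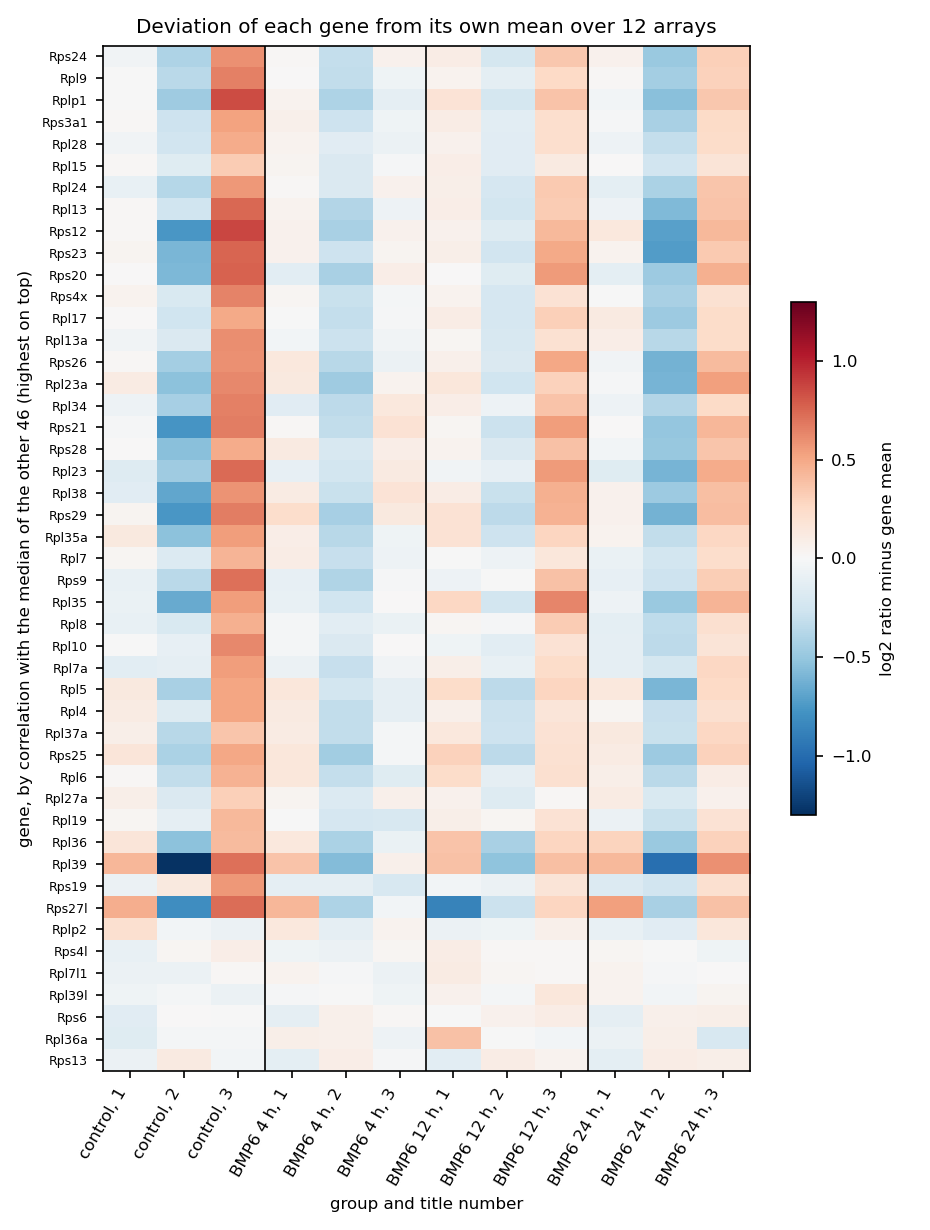
Log2 ratio of each of the 47 ribosomal protein genes minus its own mean over 12 arrays, genes ordered from the highest to the lowest correlation with the median of the other 46. The columns of control array 3 (red) and of the arrays numbered 2 (blue) run through nearly all genes, and the lowest rows, from Rplp2 to Rps13, stay pale apart from Rpl36a on array 1 of 12 h.

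Members followed each other closely over the 12 arrays, which share cells, reference RNA and title numbers. The correlation of a member with the median of the other 46 was above 0.9 for 33, between 0.5 and 0.9 for 7 (Rpl6, Rpl19, Rpl27a, Rpl36, Rpl39, Rps19 and Rps27l) and below 0.5 for 7. The highest were Rps24 (r = 0.991), Rpl9 (0.990) and Rplp1 (0.987). Without control array 3 the counts were 28, 13 and 6 over 11 arrays. Without control array 3 and array 2 of 24 h, the farthest from the median array, they were 26, 15 and 6 over 10 arrays. The median of the 1081 pairwise correlations was 0.875, and 0.821 after group and number means were removed. Among the other 8220 named genes, 140 (1.7%) had r above 0.9 with the member median, and their median r was 0.117.

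The 7 members with r below 0.5 were Rps13 (-0.36), Rpl36a (-0.193), Rps6 (-0.04), Rpl39l (0.193), Rpl7l1 (0.277), Rps4l (0.309) and Rplp2 (0.335). They include 3 of the 4 relatives, Rpl39l, Rpl7l1 and Rps4l. Rps13, a small subunit protein, had -0.54, -0.35 and -0.50 in control cells, -0.59, -0.38 and -0.49 after 4 h, -0.60, -0.37 and -0.42 after 12 h and -0.60, -0.38 and -0.39 after 24 h of BMP6. Its number 1 was the lowest and its number 2 the highest in every group, unlike most members, in which number 2 was the lowest, with number means of -0.583, -0.368 and -0.449 and 89.8% of its sum of squares between numbers. Rps6, as the average of its 2 probes, shared the low number 1 (0.300, 0.446 and 0.440). Rpl7l1, a relative of Rpl7, and Rps4l changed little on any array, with SDs of 0.0551 and 0.0607. Among members with a matched start, a pyrimidine run of 8 or more near it was found in 20 of 32 with r above 0.5 and in 3 of 6 with r below 0.5. Many ribosomal protein genes have near-identical processed pseudogenes in the genome, and whether a probe also bound RNA of such copies was not tested.

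**Figure D5:**
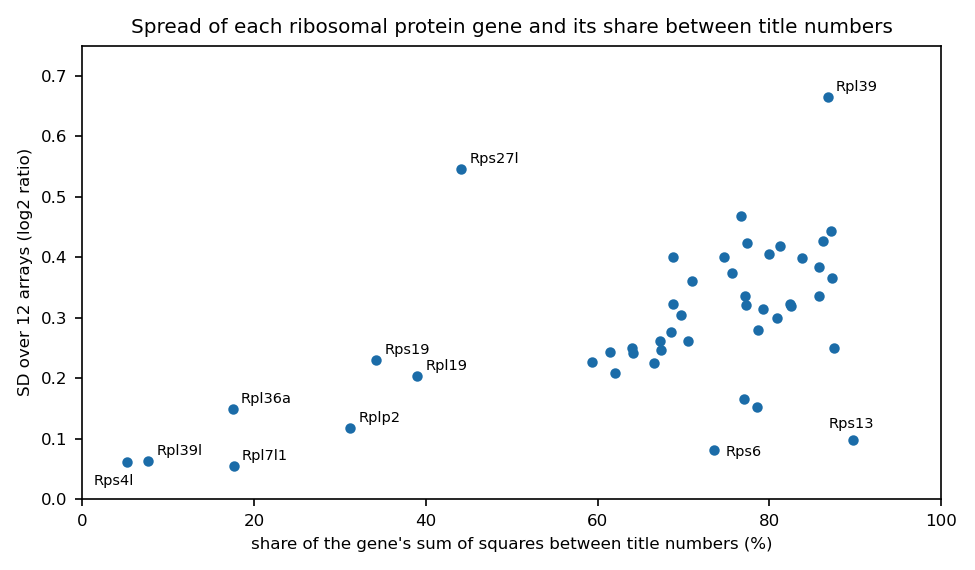
SD of each ribosomal protein gene over 12 arrays against the share of its sum of squares that lies between title numbers. Rpl39 has the largest SD (0.665), Rps13 and Rps6 combine a high share with an SD under 0.1, and Rpl39l, Rpl7l1 and Rps4l are low on both axes.

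The named genes most like the member median over the 12 arrays were Nme2, a nucleoside diphosphate kinase (r = 0.981), Ndufs6, a subunit of respiratory complex I (0.976), Wsb1 (0.969) and Ndufb6, also of complex I (0.968). Respiratory chain genes had a median r of 0.882 over 59 measured, and 53 of the 59 passed the test of title number, beside 55.9% of all genes. Their median changes were -0.109, -0.051 and -0.02 at the 3 times. With the block 1 gene, Ndufv2, was lower at 4 h (-0.27, adjusted p = 0.0319), beside 6.02% of all genes called in either direction. Mitochondrial ribosomal proteins, which serve the ribosome of the organelle, had a median r of 0.479 over 52 genes. Of these 36 passed the test of title number and 0 changed at any time in either fit.

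Other genes of ribosome production and translation were measured beside the members. Among 43 measured genes of ribosome assembly and RNA polymerase I the median change was 0.104 at 4 h, 0.134 at 12 h and 0.028 at 24 h. Without the block 0 of 43 passed, and with it 2 rose at 4 h and 1 at 12 h, beside 6.02% and 1.89% of all genes called in either direction. Such shares of the list are near those of all genes. Rrp9, a protein of the U3 particle that processes pre-rRNA, had 1.80, 1.89 and 1.48 in control cells, 2.20, 2.17 and 1.78 after 4 h, 2.14, 2.21 and 1.76 after 12 h and 1.97, 1.93 and 1.53 after 24 h of BMP6. All 4 h and 12 h values exceeded the control value of the same number, by a mean of 0.33 and 0.32 (adjusted p 0.00311 and 0.00857 with the block, 0.737 and 1 without). Rrs1, a large subunit assembly factor, was higher by 0.23 at 4 h (adjusted p = 0.0493 with the block). Among 34 translation factors only Eif6, which keeps the subunits from joining, passed, beside 6.02% of all genes called at 4 h with the block. Its change was 0.36 at 4 h, with adjusted p = 0.0124 with the block and 0.107 without. Eif6 had 0.48, 0.44 and 0.73 in control cells, 0.86, 0.94 and 0.91 after 4 h, 0.75, 0.82 and 0.74 after 12 h and 0.52, 0.51 and 0.62 after 24 h of BMP6. All its 4 h values lay above all control values, and no share over all genes is given for such a gap. The 11 genes of the S6 kinase and mTORC1 list included the transcription factor Myc. Myc alone passed, with 0.32 at 4 h (adjusted p = 0.00498 with the block, 0.30 without), again beside 6.02% of all genes. No S6 kinase or mTORC1 gene passed. The median r with the ribosomal protein median was 0.083 for assembly genes, 0.358 for translation factors and 0.139 for the mTORC1 list. In the test of title number 25 of 34 translation factors and 23 of 43 assembly genes passed, beside 55.9% of all genes. Rps19bp1, a binding partner of Rps19 that is not itself a ribosomal protein, had changes of 0.087, 0.135 and 0.036 and passed at no time.

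A further 13 probes are listed under a ribosomal protein together with another gene, such as Rps3 with Snord15b and Rpl12 with Snora65, and were kept out of the gene averages. Tested alone, 0 of 13 passed in either fit, and the smallest adjusted p was 1 without the block and 0.218 with it. Their r with the member median was above 0.9 for 5 probes, below 0.5 for 2 and between for 6. The 4 probes shared by Rpl5 and Dipk1a had r of 0.110, 0.669, -0.172 and 0.871, so probes listed under one pair of genes did not give one pattern.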

How the data were processed

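Arrays were hybridised with Cy5 cell RNA and Cy3 reference RNA, scanned on a GenePix 4000B, and normalised by a local form of quantile normalisation, per the labels. The deposited values are log ratios, taken here as log2, and the labels state neither base nor sign. They were used without further normalisation. Probe names came from the platform table, with 10576 probes of 1 symbol covering 8267 genes and 507 probes of several symbols left out of the gene averages. For 10548 probes the symbol was brought up to date by gene identifier. Values lie on a grid of 215 by 105 positions, and gene names rest on an order of it inferred from the data: the first 2 probes of 1831 genes correlate across genes at r = 0.471 in it and at 0.021 in the deposited order. Probes of a gene were averaged. Python 3.11.15 with pandas 2.3.3 was used for tables.

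Tests used limma 3.58.1 in R 4.3.3 (lmFit, eBayes, two-sided, 12 arrays in 1 fit, Benjamini-Hochberg over 8267 genes, threshold 0.05), checked on simulated data. Same-numbered arrays of different groups correlated in their deviations from the group means at 0.443 to 0.695 (18 pairs), and differently numbered ones at -0.564 to 0.069 (36), so the title numbers pair the arrays and a fit with them as a block stands beside the main one. Array values were given for members past the threshold in either fit, the 3 highest and 3 lowest changes at each time, the 3 smallest p of the F test and the 2 genes with the largest probe disagreement. Rps13, Rplp2, Rrp9 and Eif6 were added after their values were seen. The members and the lists were chosen with earlier results of these data known. Array correlations ran from 0.877 to 0.98, and no array was a copy of another. Alternatives were normalisation, probe summary, probe order, symbols, a filter on spread, the methods' t-test, 2 groups per fit, and arrays left out.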

Additional observations from a re-analysis of the deposited data

How the results depend on the processing

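Against control, 0 members passed under 125 of 126 combinations of comparison and alternative. The exception, without control replicate 1 and with the replicate block, was 1 member at 4 h, Rps19 at -0.47. No share over all genes is given for that fit, so this count cannot be placed against the other genes. The replicate block alone left the count at 0 of 47 in each comparison, and it raised the genes called among all 8267 to 498 at 4 h, 156 at 12 h and 14 at 24 h, against 14, 0 and 0 without it. For 12 h against 4 h, 1 member passed by the methods' t-test unadjusted (Rpl19), and 1 without control replicate 3 and with the replicate block (Rpl34). For these settings too no share over all genes is given. The members' median change held less well. Leaving out 1 array or title number, it ran without the block from -0.208 to 0.205 at 12 h (lowest without control 2, highest without control 3), from -0.315 to 0.103 at 24 h (the same 2 arrays), from 0.039 to 0.278 at 12 h against 4 h, from -0.249 to 0.062 at 24 h against 12 h, from -0.106 to 0.223 at 24 h against 4 h, and from -0.364 to 0.06 at 4 h. With the replicate block the ranges were -0.266 to 0.043 at 4 h, -0.066 to 0.14 at 12 h, -0.174 to 0.03 at 24 h (highest without control 3), 0.008 to 0.222 at 12 h against 4 h, -0.161 to -0.053 at 24 h against 12 h, and -0.085 to 0.134 at 24 h against 4 h. In the deposited row order, where member names fall on other values, it was 0.03 at 24 h and 0.023 at 24 h against 12 h. In the main test of title number 40 members passed, beside 55.9% of all genes. The count became 26 in the deposited order, and 9 to 42 with arrays left out. The 9 came without title number 2, where only numbers 1 and 3 were compared. No share over all genes is given for these alternatives, so their counts cannot be placed against the other genes. No filter on dim probes was possible, since no intensities were used. Of 1716 values of single named members against control, 1 crossed the threshold (the Rps19 value above) and 0 called values reversed. The cause of these shifts was not tested.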
